A study of Mus musculus with 5 samples.

Results

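Sorted CD8 Treg (CD8+ regulatory T cells) were set against the sorted spleen population labelled CD49lo, gene by gene, by RNA sequencing. The CD8 Treg side rests on 1 library, so every CD8 Treg value below has n = 1, and the CD49lo side rests on 2 libraries. Genes entered the description if they reached at least 1 RPKM (reads per kilobase of gene, scaled to a common sequencing depth) in the CD8 Treg library or in both CD49lo libraries. That rule took 11938 of 35275 genes in the table. Of these, 10382 met it on both sides, 893 through CD8 Treg alone and 663 through CD49lo alone. At the threshold, the nearest genes inside were Paqr8 at 1.0003 RPKM and Gm13605 at 1.00095 RPKM, and the nearest outside were B3gnt9 at 0.999 RPKM and Gk5 at 0.998 RPKM.

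All mice were wild-type C57BL/6, 3 months old, and the labels name no transgene or treatment. After enrichment of CD8 cells from spleen, each population was isolated by flow cytometry, and total RNA went into standard Illumina libraries. The labels name CD8 Treg without a replicate number, CD49lo replicates 1 and 2, and CD4 Treg (CD4+ regulatory T cells) replicates 1 and 2. The CD4 Treg libraries enter the fit to estimate the spread between replicates. They also take part in the scaling and in the filter on low reads, and their levels are given for reference. The series sets CD8+ effector-like cells beside both kinds of Treg, so CD49lo is that population only by elimination. The sort markers, the pooling of animals and which CD49 chain was meant are not given in the sources used here, nor whether replicates came from separate animals. P-values therefore rest on sample-to-sample spread alone, and that spread may be technical.

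CD8 Treg are a small subset of memory-phenotype CD8 T cells in the mouse that can suppress activated CD4 T cells through recognition of the nonclassical molecule Qa-1. They are known for surface Ly49 receptors, which NK cells also carry, and for CD122, the beta chain of the receptors for IL-2 and IL-15. Effector CD8 T cells, by contrast, divide after antigen contact and load granules with granzymes and perforin. Their terminally differentiated forms carry KLRG1 and the fractalkine receptor, whereas resting memory cells keep the survival protein BCL2 and the IL-7 receptor.

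The 3 libraries compared held 6073243 reads in genes (CD8 Treg) and 8354971 and 6564411 (CD49lo replicates 1 and 2). Across all 5 libraries the depth was 5441444 to 8354971 reads, and 15098 to 17472 genes had at least 1 read. In composition, CD8 Treg differed from the other libraries. Ribosomal protein genes took 14.7% of its reads against 9.72% and 9.86% in CD49lo, and the noncoding transcript Gm26917 took 6.86% against 4.16% and 3.57%. The Y-linked gene Ddx3y was at 18.3 RPKM in CD8 Treg and 18.3 and 27.4 RPKM in CD49lo, but at or below 0.0701 RPKM in CD4 Treg, where the X-inactivation transcript Xist reached 35.5 and 27.2 RPKM. The sex of the mice is thus shared by the 2 populations compared and differs from that of the CD4 Treg libraries.

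The labelled lineage was checked on T cell transcripts first. Cd3e, a chain of the T cell receptor complex, was at 310 RPKM in CD8 Treg and at 348 and 302 RPKM in CD49lo. Cd8a, the CD8 alpha chain, was at 187 RPKM against 215 and 255 RPKM, and Cd8b1, the beta chain, at 556 RPKM against 712 and 785 RPKM. None of these was called different (limma adjusted p of 0.83, 0.645 and 0.299). Cd4 was lower in CD8 Treg, at 5.77 RPKM against 16.48 and 15.6 RPKM (log2 fold change -1.27 ± 0.15, SE; adjusted p = 0.00191), and it reached 201 and 219 RPKM in CD4 Treg. Foxp3, the transcription factor of CD4 Treg, was at 0.387 RPKM in CD8 Treg and at 1.66 and 0.795 RPKM in CD49lo, against 146 RPKM in each CD4 Treg library.

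Of the 13298 genes with enough reads to test, 714 (5.37%) were called, meaning an adjusted p under 0.05 in the limma fit. CD8 Treg was higher for 228 of them (1.71%) and lower for 486 (3.65%). These shares of all genes tested are the reference for the counts of every list below. Among the genes of the rule, 11473 were tested and 465 were not, and 713 (6.21%) were called, 228 higher (1.99%) and 485 lower (4.23%). The 1825 tested genes outside the rule gave the remaining call. Since a gene could enter the rule through the side where it is high, these counts describe the comparison and support nothing about the genes that entered. The lower calls were also the larger ones: the median absolute log2 fold change was 1.73 for genes called lower and 0.93 for genes called higher, and 404 of 486 against 95 of 228 passed 2-fold in the fit. Without any test, 303 genes (2.28%) stood at least 2-fold above both CD49lo libraries and 829 (6.23%) at least 2-fold below both, while the CD49lo replicates themselves were at least 2-fold apart for 922 genes (6.93%) and the CD4 Treg replicates for 792 (5.96%). By rank alone, CD8 Treg lay above both CD49lo libraries for 4529 genes (34.1%) and below both for 5436 (40.9%).

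The calls depend on each CD49lo and CD4 Treg library. The single CD8 Treg library could not be left out, so 1 library left out always means 1 of those. With CD49lo replicate 1, CD49lo replicate 2, CD4 Treg replicate 1 or CD4 Treg replicate 2 left out, or with the CD4 Treg libraries dropped together, limma called 0 genes, with the smallest adjusted p at 0.107 to 0.153 and 1892 to 2319 genes at an unadjusted p under 0.05. The split of calls also moved with the processing: 31.9% of calls were higher as reported, 50.8% with limma-voom on the recovered reads, 20.4% without a scaling factor, 53.1% when only genes of the rule were fitted and 85.6% without a filter on low reads. Of the 40 gene lists with a call, 36 held fewer calls by over 1.5 times without the filter, 34 with only genes of the rule, 27 when the prior followed RPKM and 11 with limma-voom, where 8 held more. Leaving out the scaling factor shifted the median log2 fold change of all genes from -0.04 to -0.16. In these libraries a lower level can mean fewer cells of a type or less RNA per cell, and bulk RNA cannot tell these apart.

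**Figure D1:**
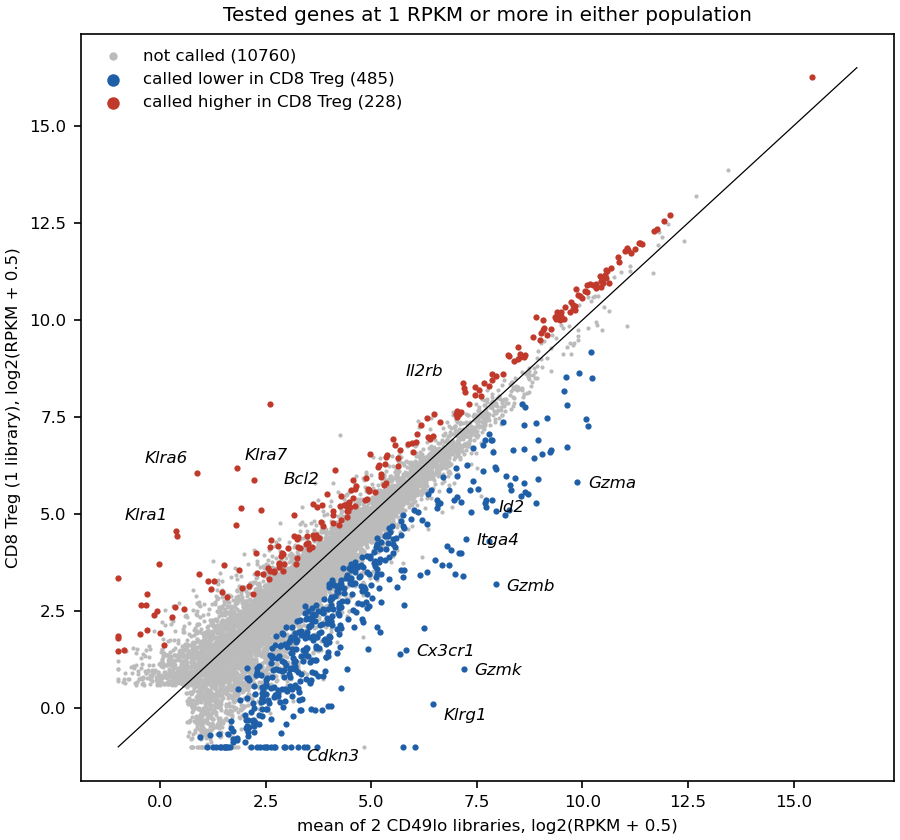
Each point is a tested gene of the rule, with the mean of the 2 CD49lo libraries on the horizontal axis and the single CD8 Treg library on the vertical axis, both as log2(RPKM + 0.5). Red points are the 228 genes called higher in CD8 Treg and blue points the 485 called lower; Klra6 and Klra7 lie farthest above the line of equal values among the labelled genes, and Gzmk and Klrg1 farthest below it.

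The Ly49 receptors had the highest median log2 fold change of the gene lists described here. The sort markers are not given, so this difference may restate a sort on Ly49 receptors, which was not tested. These lectin-like receptors, encoded by the Klra genes in a cluster on chromosome 6, bind class I major histocompatibility molecules and are mostly inhibitory. Of 11 Klra genes tested, 6 were called higher and 0 lower, with a median log2 fold change of 2.90 against -0.04 over all genes tested. Their summed level was 261 RPKM in CD8 Treg, 38.4 and 167 RPKM in CD49lo replicates 1 and 2, and 0.874 and 1.21 RPKM in CD4 Treg. The members are related in sequence, some of them closely, and several share a stretch just before their start that few other genes carry. Parts of 4 promoters are shown for that reason, from RefSeq on build GRCm38.p6, each on the minus strand and written 5′ to 3′ with the shared 11 bases in capitals. Klra6 (chr6:130027023-130027092, 138 to 69 bases before its start), Klra3 (chr6:130337627-130337664, 38 to 1 bases before) and Klra5 (chr6:129913264-129913333, 109 to 40 bases before) were called higher in CD8 Treg, and Klra9 (chr6:130193113-130193169, 57 to 1 bases before) was not called.
Klra6: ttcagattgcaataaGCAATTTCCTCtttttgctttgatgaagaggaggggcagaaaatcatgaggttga
Klra3: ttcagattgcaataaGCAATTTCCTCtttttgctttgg
Klra5: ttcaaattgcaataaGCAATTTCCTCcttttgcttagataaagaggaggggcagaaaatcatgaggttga
Klra9: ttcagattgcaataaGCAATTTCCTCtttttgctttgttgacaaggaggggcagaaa

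The word GCAATTTCCTC was picked from the Ly49 promoters themselves. Searched on both strands in the 250 bases before each start, it occurred in 18 of 32851 promoters (0.0548%), 9 of them Ly49 promoters. It was found for 8 of 11 Klra genes, namely 3 of the 6 that were called higher and 5 of the 5 that were not called, and the 3 without it (Klra1, Klra7 and Klra10) were all called.

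Klra6, which encodes Ly49F (ENSMUSG00000061769, mm10 chromosome 6, 130013033 to 130026954, minus strand), stood at 65.8 RPKM in CD8 Treg. It was at 1.39 and 1.23 RPKM in the CD49lo libraries (1.31 ± 0.117, SD, n = 2) and had 0 reads in both CD4 Treg libraries. The CD8 Treg library was far above both CD49lo libraries, which lay close together (log2 fold change 5.32 ± 0.51, SE; adjusted p = 0.000753). Klra7, which encodes Ly49G (ENSMUSG00000067599, chromosome 6, 130218605 to 130233322), was at 71.7 RPKM against 1.30 and 4.69 RPKM (3.00 ± 2.40, SD, n = 2), again with no overlap (4.69 ± 0.65; adjusted p = 0.0042). Klra7 lost its call without the read filter and when only genes of the rule were fitted, whereas Klra6 kept its call there.

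The other called members were Klra1, Klra3, Klra5 and Klra10. Klra1, encoding Ly49A, was at 23.3 RPKM in CD8 Treg against 0.933 and 0.640 RPKM (4.34 ± 0.53; adjusted p = 0.00228). Klra3, encoding Ly49C, was at 35.4 RPKM against 3.96 and 2.58 RPKM (3.40 ± 0.53; adjusted p = 0.00698), and Klra10 was at 12.6 RPKM against 0.582 and 0.370 RPKM (3.87 ± 0.56; adjusted p = 0.00523). In each of these 3 the CD8 Treg library was the highest, and the choice of genes required it to lie above both CD49lo libraries. Klra5, with 3.01 RPKM in CD8 Treg and 0 reads in the 4 other libraries, was at least 18.9-fold higher than in CD49lo (floor of 3 reads over the group; adjusted p = 0.0211). Its call was lost with limma-voom and with a pseudocount of 0.1.

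The remaining Klra genes were not called. Klra4 and Klra8, which encode the activating receptors Ly49D and Ly49H, were at 10.7 RPKM against 1.63 and 2.69 RPKM (adjusted p = 0.0511) and at 12.6 RPKM against 2.84 and 4.53 RPKM (adjusted p = 0.09). Klra9, encoding Ly49I, was at 24.0 RPKM in CD8 Treg and at 18.5 and 142 RPKM in CD49lo, so the CD49lo replicates were on either side of CD8 Treg and supplied most of the summed level of replicate 2. Klra2 was at 1.01 RPKM against 4.86 and 3.13 RPKM (adjusted p = 0.181) and Klra17 at 1.12 RPKM against 2.34 and 5.18 RPKM (adjusted p = 0.36). Levels of these genes are uncertain where copies share sequence: the share of a gene's 50-base words that also occur in another Ly49 transcript was 0 for Klra2 and Klra17, 0.732% for Klra5, 2.62% for Klra6, 3.15% for Klra1, 4.35% for Klra4 and 14.7% for Klra7, but 21.5% for Klra3, 32.4% for Klra9, 33.1% for Klra8 and 39.8% for Klra10. For Klra7 these words lay in the pseudogene Klra13-ps, which was itself at 230 RPKM in CD8 Treg against 5.58 and 5.61 RPKM (log2 fold change 5.37 ± 0.47; adjusted p = 0.000466), a value looked up after the others were seen.

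Of 20 NK cell receptor and adaptor genes outside the Ly49 family, 0 were called higher and 2 lower, with a median log2 fold change of -0.58, and 2 stood at least 2-fold above both CD49lo libraries and 5 below both. With limma-voom 2 were called higher and 3 lower. Klrg1, an inhibitory receptor of terminally differentiated cells, was 1 of the 2, at 0.582 RPKM in CD8 Treg against 34.5 and 141 RPKM in CD49lo (-5.93 ± 0.62; adjusted p = 0.00119). Klrd1, which encodes the CD94 chain, was at 117 RPKM against 81.9 and 157 RPKM, and its partner Klrc1, encoding NKG2A, at 36.0 RPKM against 74.5 and 163 RPKM, and neither was called (adjusted p of 0.869 and 0.128). Ncr1, encoding NKp46, was at 18.8 RPKM against 5.28 and 7.03 RPKM (adjusted p = 0.0819), above both CD49lo libraries but short of the threshold. The call of Klrg1 was lost with limma-voom, without the filter and when only genes of the rule were fitted.

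**Figure D2:**
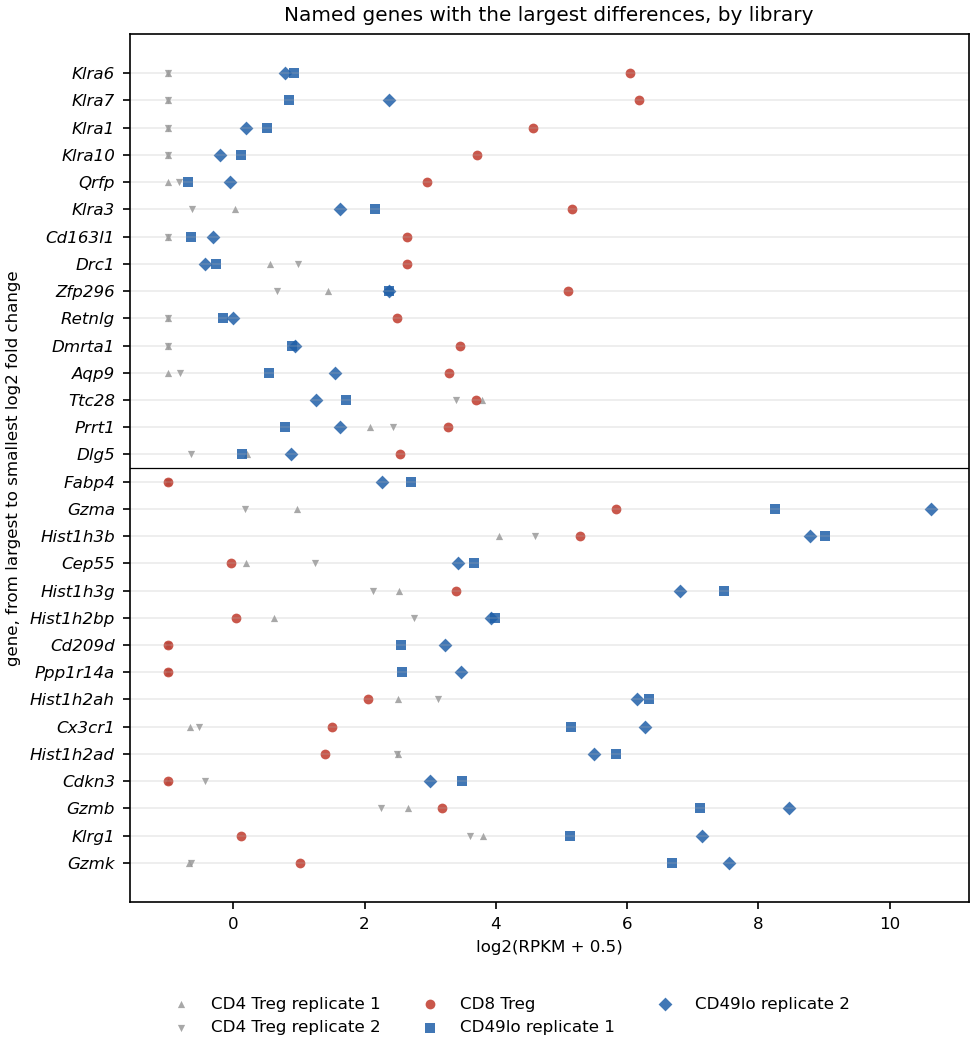
Level of each named gene with a large difference in every library, as log2(RPKM + 0.5), with CD8 Treg in red, CD49lo replicates in blue and CD4 Treg replicates in grey. Genes above the horizontal line were called higher in CD8 Treg, 5 of those 15 being Klra genes, and genes below it were called lower. The red point lies outside the blue points in every row because the choice of genes required it.

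The other genes with the largest differences toward CD8 Treg had mixed roles and mostly low levels. Zfp296, a zinc finger protein, was the most abundant of them, at 33.9 RPKM in CD8 Treg against 4.69 and 4.68 RPKM in CD49lo (log2 fold change 2.86 ± 0.44; adjusted p = 0.00707). Qrfp, a neuropeptide precursor, was at 7.20 RPKM against 0.123 and 0.468 RPKM, and Drc1, a part of the dynein regulatory complex of cilia, at 5.77 RPKM against 0.337 and 0.245 RPKM. Cd163l1, a scavenger receptor known from gamma-delta T cells, was at 5.77 RPKM against 0.139 and 0.309 RPKM, and the delta joining segment Trdj1, looked up after the values were seen, was at 58.1 RPKM against 2.35 and 5.97 RPKM. The CD8 Treg library was above both CD49lo libraries for each of these, which the choice of genes required for all but Trdj1. Of 6 gamma-delta, NKT and MAIT cell markers tested, Cd163l1 was called higher and the transcription factor Maf lower, at 1.32 RPKM against 4.69 and 3.98 RPKM. The list summed to 10.99 RPKM in CD8 Treg and to 13.1 and 14.99 RPKM in CD49lo. Zbtb16, the defining factor of NKT cells, was at 0.581 RPKM against 0.868 and 0.657 RPKM, the kinase Blk at 3.19 RPKM against 7.40 and 9.91 RPKM, and Il23r had 0 reads in all 3 libraries. The part of such cells in the levels of Cd163l1 and Trdj1 was not tested. Dmrta1 (10.5 RPKM against 1.35 and 1.42), the glycerol channel Aqp9 (9.23 against 0.952 and 2.42), Ttc28 (12.5 against 2.80 and 1.89), Prrt1 (9.17 against 1.23 and 2.59) and the scaffold protein Dlg5 (5.33 against 0.595 and 1.34) completed the group, with adjusted p of 0.00119 to 0.045.

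Several cytokine receptors of resting and memory T cells were higher in CD8 Treg. Of 23 cytokine receptor genes tested, 6 were called higher and 2 lower, with a median log2 fold change of 0.26. Il2rb, which encodes CD122 (ENSMUSG00000068227, chromosome 15, 78480553 to 78495066), reached 302 RPKM in CD8 Treg against 152 and 141 RPKM in CD49lo (146 ± 7.67, SD, n = 2), with 267 and 277 RPKM in CD4 Treg. CD8 Treg lay above both CD49lo libraries by about the same step (log2 fold change 1.18 ± 0.12; adjusted p = 0.00112). With the sort markers not given, this may restate a sort on CD122, which was not tested. The common gamma chain Il2rg, its signalling partner, was at 49.6 RPKM against 41.2 and 46.0 RPKM (adjusted p = 0.334), and Il2ra, encoding CD25, was at 1.30 RPKM against 2.95 and 1.69 RPKM (adjusted p = 0.352).

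Among the other receptor chains, Il7r, the IL-7 receptor, was at 133 RPKM against 68.8 and 66.1 RPKM (1.11 ± 0.14; adjusted p = 0.00289). Il4ra, the IL-4 receptor, was at 74.0 RPKM against 35.1 and 35.4 RPKM (1.19 ± 0.12; adjusted p = 0.00113), and Il18r1, a chain of the IL-18 receptor, at 59.9 RPKM against 32.6 and 25.0 RPKM (1.19 ± 0.18; adjusted p = 0.00707). For all 3 the CD49lo replicates lay close together and below CD8 Treg, which their choice by smallest p favoured. Il6ra (37.0 RPKM against 23.3 and 16.2) and Il10rb (33.6 against 21.2 and 20.7) were also higher. Il10ra, the other chain of the IL-10 receptor, was lower, at 25.4 RPKM against 51.8 and 55.2 RPKM (-0.93 ± 0.18; adjusted p = 0.0172), as was the interferon-gamma receptor chain Ifngr2, at 2.58 RPKM against 7.36 and 6.13 RPKM.

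Downstream of these receptors, 2 of 19 JAK, STAT and SOCS genes were called higher and 3 lower. Stat4, which relays IL-12, was at 48.3 RPKM against 27.3 and 33.6 RPKM (0.80 ± 0.17; adjusted p = 0.0272) and the feedback inhibitor Socs3 at 41.8 RPKM against 25.0 and 21.5 RPKM (0.97 ± 0.16; adjusted p = 0.00918). Cish and Socs2, inhibitors induced by STAT5, were lower, at 0.491 RPKM against 2.78 and 7.49 RPKM (-2.29 ± 0.43; adjusted p = 0.0163) and at 0.0388 RPKM against 0.931 and 1.62 RPKM (-1.66 ± 0.40; adjusted p = 0.0484). The Socs2 level in CD8 Treg was below the 0.165 RPKM that 1 read per kilobase gives. With limma-voom the list held 2 higher and 0 lower calls, and with the prior by RPKM 1 higher and 0 lower. It held 0 calls without the filter or with only genes of the rule.

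Resting memory and naive or stem-like genes leaned toward CD8 Treg. Of 15 resting memory genes tested, 5 were called higher and 1 lower (median log2 fold change 0.87), and of 20 naive and stem-like genes 6 were called higher and 0 lower (median 0.42). The lists share members, Il7r among them. Bcl2 (ENSMUSG00000057329, chromosome 1, 106538178 to 106714274), which protects resting lymphocytes from death, stood at 44.9 RPKM in CD8 Treg, 14.6 and 15.4 RPKM in CD49lo (14.98 ± 0.592, SD, n = 2), and 25.2 and 24.3 RPKM in CD4 Treg. The CD8 Treg library was the highest of the 5 (log2 fold change over CD49lo 1.69 ± 0.13; adjusted p = 0.000396). The exception in the list was Ly6a, encoding Sca-1, at 11.2 RPKM against 39.0 and 63.2 RPKM (-1.97 ± 0.27; adjusted p = 0.00442).

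Of the naive and stem-like genes, the chromatin organizer Satb1 was at 110 RPKM against 53.6 and 40.2 RPKM (1.37 ± 0.17; adjusted p = 0.00279). The kinase Txk was at 58.7 RPKM against 23.2 RPKM in each CD49lo library (1.46 ± 0.17; adjusted p = 0.00193), and Nsg2 at 121 RPKM against 55.3 and 35.2 RPKM (1.58 ± 0.24; adjusted p = 0.00607). Lef1, a transcription factor of the Wnt pathway, was at 128 RPKM against 90.9 and 83.8 RPKM (0.68 ± 0.13; adjusted p = 0.0146). Its relative Tcf7, encoding TCF1, was at 529 RPKM against 418 and 310 RPKM and was not called (0.69 ± 0.18; adjusted p = 0.0655). Klf2 (251 RPKM against 272 and 314) and Id3 (26.9 against 26.3 and 25.7) were not called, Klf2 being below both CD49lo libraries and Id3 slightly above both.

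The BCL2 family gave calls in both directions, and each direction held both prosurvival and death genes. Of 16 tested, 2 were called higher and 4 lower. Besides Bcl2, the BH3-only death gene Bbc3, encoding PUMA, was higher, at 31.1 RPKM in CD8 Treg against 8.12 and 8.73 RPKM (1.96 ± 0.25; adjusted p = 0.00289). Lower were the prosurvival gene Bcl2a1d (8.01 RPKM against 31.8 and 40.2; -1.96 ± 0.44, adjusted p = 0.0344) and the pore former Bak1 (12.003 RPKM against 30.3 and 24.4; -1.02 ± 0.21, adjusted p = 0.0251). Bcl2a1d has near-identical copies, so its level is uncertain. The BH3-only death gene Pmaip1 was also called lower. The BH3-only gene Bik had 0 reads in CD8 Treg against 2.54 and 1.78 RPKM, at least 3.84-fold lower (adjusted p = 0.0442).

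Most genes of terminal effector cells were lower in CD8 Treg. Of 24 tested, 18 were called lower and 0 higher, against 3.65% of all genes called lower, and the median log2 fold change was -1.95. The log2 fold change was negative for 23 of the 24. The count was 6 when only genes of the rule were fitted, 11 when the prior followed RPKM, 3 without the filter and 0 with any 1 library left out. Cx3cr1, the fractalkine receptor, was at 2.34 RPKM in CD8 Treg and at 35.0 and 76.8 RPKM in CD49lo (55.9 ± 29.6, SD, n = 2), with 0.130 and 0.197 RPKM in CD4 Treg (log2 fold change over CD49lo -4.09 ± 0.44; adjusted p = 0.00133). CD8 Treg was below both CD49lo libraries, which themselves stood apart, by 3.54 on the log2 scale to the nearer of them against 1.09 between them. The call of Cx3cr1 was lost without the filter and when only genes of the rule were fitted.

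Further members of this list ranged from calcium-binding proteins to transcription factors. S100a4 was at 15.5 RPKM against 133 and 146 RPKM (-2.99 ± 0.24; adjusted p = 0.000396), and Lgals3, the lectin galectin-3, at 5.802 RPKM against 43.4 and 64.3 RPKM (-2.96 ± 0.37; adjusted p = 0.00265). Id2, an inhibitor of E proteins that effector cells need, was at 40.8 RPKM against 189 and 232 RPKM (-2.21 ± 0.19; adjusted p = 0.000451). For these 3 genes the CD49lo replicates differed by less than the step to CD8 Treg, which their choice by smallest p favoured. S1pr5, a receptor for exit from tissues, was at 3.36 RPKM against 15.1 and 57.6 RPKM (-2.84 ± 0.67; adjusted p = 0.0435), with the replicates wide apart. Tbx21, encoding T-bet, was not called and its levels overlapped, at 64.3 RPKM against 55.2 and 90.5 RPKM.

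Granule genes were divided. Of 21 granule and killing genes tested, 5 were called lower and 0 higher, and the median log2 fold change was -0.42. The granzymes with large differences were Gzmk, Gzmb and Gzma, serine proteases of cytotoxic granules. Gzmk (ENSMUSG00000042385, chromosome 13, 113171608 to 113225908) had 1.52 RPKM in CD8 Treg, compared with 103 and 188 RPKM in CD49lo (145 ± 60.4, SD, n = 2), with 0.124 and 0.141 RPKM in CD4 Treg, so the CD8 Treg library was below both CD49lo libraries (-6.002 ± 0.45; adjusted p = 0.000348). Gzmb was at 8.59 RPKM against 138 and 353 RPKM (-4.47 ± 0.45; adjusted p = 0.00102). Gzma was at 56.4 RPKM against 304 and 1580 RPKM (-3.47 ± 0.74; adjusted p = 0.0286), the replicates being more than 5 times apart, and it lost its call when the prior followed RPKM, without the filter and when only genes of the rule were fitted.

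Among the other granule and killing genes, Stx11 and Serpinb6b were also called lower, whereas Prf1, Nkg7 and Gzmm were not called. Prf1, the pore-forming perforin, was at 53.1 RPKM in CD8 Treg against 53.2 and 86.2 RPKM (adjusted p = 0.719), and the granule membrane protein Nkg7 at 218 RPKM against 275 and 373 RPKM (adjusted p = 0.373). Gzmm, another granzyme, was at 44.3 RPKM against 15.2 and 25.9 RPKM (1.27 ± 0.40; adjusted p = 0.115), on the opposite side from Gzmk. Of 15 secreted cytokine and chemokine genes tested with limma, 0 were called in either direction: Ccl5 was at 911 RPKM against 1501 and 2738 RPKM (adjusted p = 0.125) and Ifng, interferon-gamma, at 5.18 RPKM against 11.8 and 31.4 RPKM (adjusted p = 0.129). Ccl5 and Ifng were below both CD49lo libraries without passing the test, at unadjusted limma p of 0.0127 and 0.0135. With limma-voom Ccl5 was called lower (adjusted p = 0.0104), and both that fit and the one without the filter gave the list 1 higher and 1 lower call.

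Transcripts of NK cells were looked at beside these genes, since Gzma, Klre1 and some Klra genes are also NK cell markers. The summed level of 15 NK markers was 476 RPKM in CD8 Treg, 648 and 2085 RPKM in CD49lo and 42.3 and 37.99 RPKM in CD4 Treg. The defining marker Klrb1c, encoding NK1.1, was at 6.53 RPKM against 5.29 and 12.4 RPKM, and Ncr1 was above both CD49lo libraries as given earlier. Gzma supplied much of the sum: without it the other 14 markers summed to 419 RPKM in CD8 Treg, between 344 and 506 RPKM in CD49lo replicates 1 and 2, a sum formed after the values were seen. By gene, 1 of the 15 was called higher (Txk) and 1 lower (Gzma), 9 of 15 log2 fold changes were positive, the median was 0.42, and 5 genes were at least 2-fold above both CD49lo libraries and 1 below. With limma-voom 6 were called higher and 1 lower. The part of NK cells in the Ly49 and granzyme results was not tested.

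Transcription factors of effector and memory cells were called lower for 13 of 36 tested and higher for 0, with a median log2 fold change of -0.35. Besides Id2, the repressor Zeb2, which acts with T-bet in terminal effectors, was at 4.14 RPKM against 16.01 and 38.4 RPKM (-2.33 ± 0.42; adjusted p = 0.0129). Bhlhe40 was at 5.50 RPKM against 20.2 and 38.6 RPKM (-2.12 ± 0.31; adjusted p = 0.00564), and Klf4, a factor of quiescence, at 0.326 RPKM against 6.32 and 5.03 RPKM (-2.82 ± 0.40; adjusted p = 0.00469). Prdm1, encoding Blimp-1, was at 1.96 RPKM against 5.05 and 7.41 RPKM (-1.31 ± 0.26; adjusted p = 0.0207). Each of these lay below both CD49lo libraries, which the choice of called genes favoured. Eomes, the T-box factor of memory CD8 cells, was at 82.4 RPKM against 57.0 and 55.2 RPKM (adjusted p = 0.0894). Runx3 (60.6 RPKM against 62.3 and 62.8) and Ikzf2, encoding Helios (3.96 RPKM against 2.63 and 3.00), were not called, and the list gave 2 higher and 8 lower calls with limma-voom, 5 lower with only genes of the rule or when the prior followed RPKM, and 0 without the filter.

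Of 18 inhibitory receptors tested, 7 were called lower in CD8 Treg, against 3.65% of all genes, and 0 higher. Their median log2 fold change was -1.33. Ctla4 was at 1.36 RPKM against 14.7 and 9.54 RPKM (-2.62 ± 0.26; adjusted p = 0.00112), Lag3 at 2.47 RPKM against 20.1 and 16.98 RPKM (-2.56 ± 0.24; adjusted p = 0.000735), and Pdcd1, encoding PD-1, at 2.05 RPKM against 17.8 and 12.3 RPKM (-2.47 ± 0.33; adjusted p = 0.00344). Havcr2, encoding TIM-3, Cd200, Tigit and Entpd1, the ectoenzyme CD39, made up the rest, at 1.88, 0.631, 5.47 and 3.47 RPKM in CD8 Treg. In CD49lo, Havcr2 was at 11.3 and 13.1 RPKM, Cd200 at 6.07 and 3.70 RPKM, Tigit at 19.9 and 16.45 RPKM and Entpd1 at 9.36 and 9.74 RPKM. In all 7 genes both CD49lo libraries were above CD8 Treg, which the choice of called genes favoured. Btla (22.9 RPKM against 24.9 and 23.5) and Cd160 (21.6 against 14.97 and 26.7) were inside or near the CD49lo range.

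Several of these genes are also part of the CD4 Treg signature, of which 10 of 24 tested genes were called lower in CD8 Treg and 0 higher (median log2 fold change -0.86). Nrp1, encoding neuropilin-1, was at 1.51 RPKM in CD8 Treg, 9.16 and 8.18 RPKM in CD49lo, and 64.8 and 78.6 RPKM in CD4 Treg (log2 fold change over CD49lo -2.08 ± 0.18; adjusted p = 0.000451). Lrig1 was at 1.80 RPKM against 8.49 and 5.75 RPKM, with 58.3 and 57.6 RPKM in CD4 Treg (-1.60 ± 0.23; adjusted p = 0.00523). The order was the same for both genes, CD4 Treg highest and CD8 Treg lowest, and Cd4 followed it. The part of CD4 T cells in the CD49lo levels was not tested.

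Costimulatory receptors and ligands were called higher for 1 of 22 and lower for 5. Tnfsf8, encoding CD30 ligand, was at 17.6 RPKM against 5.88 and 6.84 RPKM (1.53 ± 0.23; adjusted p = 0.00581), and Tnfrsf9, encoding 4-1BB, was lower at 4.20 RPKM against 12.96 and 11.2 RPKM (-1.29 ± 0.22; adjusted p = 0.0106). Among 16 chemokine receptors, Cxcr5, the follicle homing receptor, was the 1 called higher (28.2 RPKM against 18.4 and 19.6; 0.69 ± 0.16, adjusted p = 0.0396), and Ccr2, Ccr4, Ccr9 and Cx3cr1 were called lower. Ccr2 was the most abundant of the lower ones in CD8 Treg, at 28.4 RPKM against 63.5 and 82.3 RPKM (-1.20 ± 0.22; adjusted p = 0.0156).

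Integrins bear on the label CD49lo, because CD49 names the integrin alpha chains. Of 25 integrin and adhesion genes tested, 2 were called higher in CD8 Treg and 7 lower. Itga4, the CD49d chain (ENSMUSG00000027009, chromosome 2, 79255426 to 79333123), had 20.2 RPKM in CD8 Treg, 151 and 149 RPKM in CD49lo (150 ± 1.94, SD, n = 2), and 53.2 and 44.9 RPKM in CD4 Treg, so the CD49lo libraries held the highest levels of the 5 (log2 fold change of CD8 Treg over CD49lo -2.73 ± 0.13). Its adjusted p of 8.04e-05 was the smallest of all genes tested. Itga1, the CD49a chain, was also lower in CD8 Treg, at 0.605 RPKM against 3.82 and 9.37 RPKM (-2.47 ± 0.55; adjusted p = 0.034). Over the 6 chains Itga1 to Itga6, grouped after the values were seen, the summed level was 46.1 RPKM in CD8 Treg and 182 and 181 RPKM in CD49lo. In CD4 Treg the sum was 139 and 127 RPKM, so the libraries labelled CD49lo held the highest sums of the 5. Itga2, the CD49b chain carried by NK cells, was at 3.09 RPKM against 1.51 and 2.68 RPKM, Itga3 at 0.508 RPKM against 0.763 and 0.595 RPKM, Itga5 at 2.33 RPKM against 1.04 and 0.731 RPKM, and Itga6 at 19.4 RPKM against 23.4 and 19.1 RPKM, and none of these was called. Of the partner chains, Itgb1 was at 120 RPKM against 240 and 220 RPKM (-0.80 ± 0.14; adjusted p = 0.0106) and Itgb7 at 119 RPKM against 196 and 218 RPKM (-0.66 ± 0.12; adjusted p = 0.0134). Cd69, a retention and activation marker, was higher in CD8 Treg, at 61.5 RPKM against 30.2 and 43.6 RPKM (0.88 ± 0.21; adjusted p = 0.0431).

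**Figure D3:**
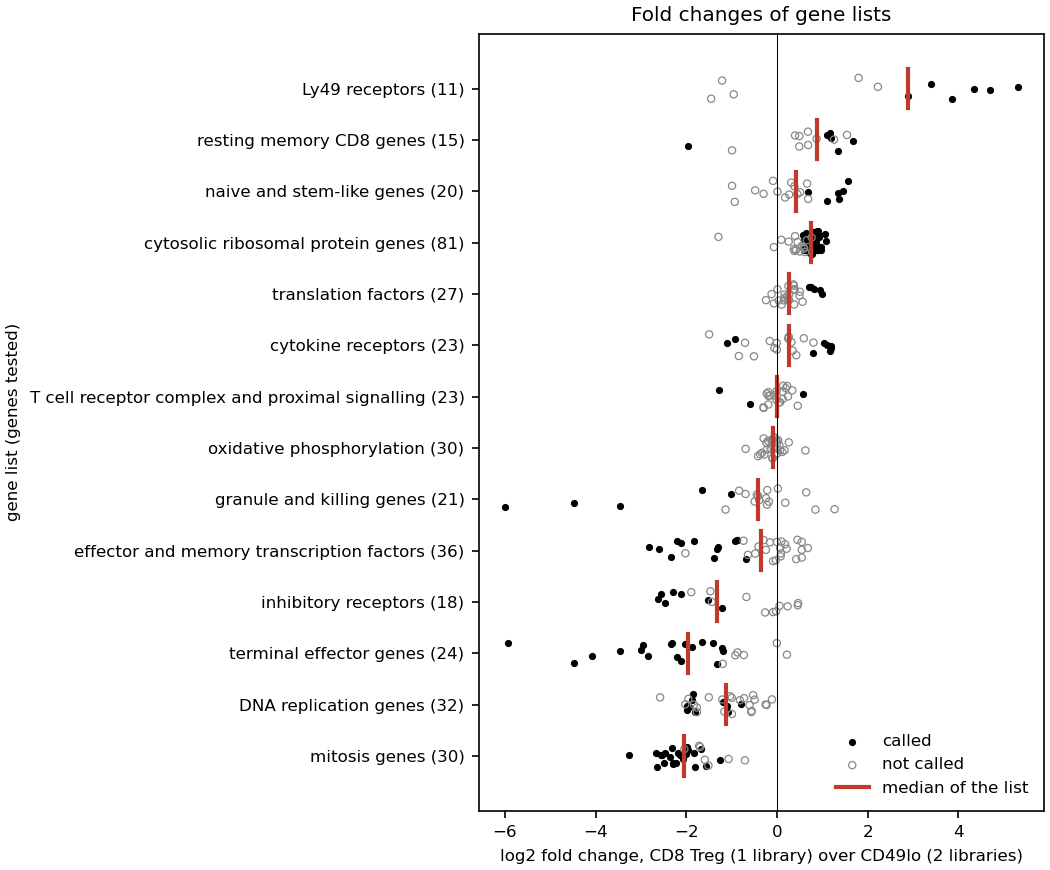
Log2 fold change of CD8 Treg over CD49lo for each tested gene of 14 lists, filled points being called genes and open points genes not called, with the median of each list as a red bar. The Ly49 receptors have a median of 2.90 and the mitosis genes one of -2.06, while the T cell receptor and oxidative phosphorylation lists sit near 0.

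Genes of cell division formed a large group on the CD49lo side. Of 30 mitosis genes tested, 23 were called lower in CD8 Treg and 0 higher, with a median log2 fold change of -2.06, and the log2 fold change was negative for all 30. Of 32 DNA replication genes, 10 were called lower and 0 higher (median -1.13), again with all 32 negative. Together with the histone genes below, these lists made up 86 of the 486 genes called lower. Mki67, encoding the proliferation marker Ki-67, was at 9.97 RPKM in CD8 Treg, 66.0 and 39.9 RPKM in CD49lo (53.0 ± 18.5, SD, n = 2), and 4.43 and 5.20 RPKM in CD4 Treg. CD8 Treg was well below both CD49lo libraries and above both CD4 Treg libraries (log2 fold change over CD49lo -2.18 ± 0.26; adjusted p = 0.00212). The call for mitosis genes fell to 11 when the prior followed RPKM, to 1 when only genes of the rule were fitted and to 0 without the filter or with any 1 library left out.

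Mitosis genes are often switched together through a CCAAT box and a cell cycle gene homology region (CHR, TTTGAA) close to the start. The promoters of 4 genes called lower, with both motifs in the last 120 bases, are shown from RefSeq on build GRCm38.p6. They had the most negative log2 fold changes after promoters on a single chromosome were left out. Each is the 120 bases just before the start, 5′ to 3′ on the strand of the gene, with TTTGAA and CCAAT of either strand in capitals. Prc1 (chr7:80294356-80294475, plus strand) bundles spindle microtubules, Cdk1 (chr10:69352913-69353032, minus strand) is the mitotic kinase, Ckap2l (chr2:129297213-129297332, minus strand) is a spindle protein and Ube2c (chr2:164769809-164769928, plus strand) loads ubiquitin for the anaphase-promoting complex.
Prc1: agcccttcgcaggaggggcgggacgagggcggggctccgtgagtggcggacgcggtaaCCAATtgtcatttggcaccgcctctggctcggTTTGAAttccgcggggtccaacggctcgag
Cdk1: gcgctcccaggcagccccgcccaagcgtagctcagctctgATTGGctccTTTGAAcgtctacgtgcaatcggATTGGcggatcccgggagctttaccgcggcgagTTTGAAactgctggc
Ckap2l: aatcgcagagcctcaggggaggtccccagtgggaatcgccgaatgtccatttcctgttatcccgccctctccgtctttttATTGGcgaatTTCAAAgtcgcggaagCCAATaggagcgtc
Ube2c: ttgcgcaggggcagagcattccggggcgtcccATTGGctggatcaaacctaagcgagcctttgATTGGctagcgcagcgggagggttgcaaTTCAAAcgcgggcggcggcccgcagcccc

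In the 250 bases before the start and on both strands, TTTGAA and CCAAT occurred together in 9 of the 27 promoters found for mitosis genes (33.3%). The share was 5.55% of all 32851 promoters, 4.01% of promoters of tested genes, 8.97% for genes called lower and 3.92% for genes called higher. CCAAT alone was in 81.5% of mitosis promoters and in 66.7% of the 27 promoters of DNA replication genes, against 35.1% for tested genes. Either of the E2F words TTTCCCGC and TTTGGCGC was in 22.2% of replication promoters and 0 of the 27 mitosis promoters, against 2.40% for tested genes. Promoters were found for 26 of 30 mitosis genes, 25 of 32 replication genes and 9293 of 13288 tested symbols. These matches describe letters in a window and were not tested.

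Of the genes whose promoters are shown, Cdk1 was at 0.856 RPKM in CD8 Treg against 7.80 and 7.18 RPKM in CD49lo (-2.46 ± 0.41; adjusted p = 0.00985) and Prc1 at 1.40 RPKM against 14.3 and 8.94 RPKM (-2.53 ± 0.40; adjusted p = 0.00754). Ckap2l was at 0.735 RPKM against 7.78 and 4.95 RPKM, and Ube2c at 2.78 RPKM against 18.8 and 12.3 RPKM. In all 4 genes CD8 Treg was below both CD49lo libraries, which their choice favoured, and CD49lo replicate 1 was the higher of the 2. The largest difference of the list was that of Ccnb2, encoding cyclin B2, at 2.35 RPKM against 37.0 and 22.6 RPKM (-3.25 ± 0.44; adjusted p = 0.00384). Top2a, the mitotic topoisomerase, was at 11.3 RPKM against 62.7 and 45.8 RPKM (-2.07 ± 0.23; adjusted p = 0.00137). The cell cycle genes Cep55 and Cdkn3 were also among the largest differences of the comparison. Cep55, needed for abscission, was at 0.477 RPKM against 12.3 and 10.3 RPKM (-3.50 ± 0.49; adjusted p = 0.00469), and Cdkn3, a phosphatase of cyclin-dependent kinases, had 0 reads against 10.7 and 7.49 RPKM, at least 13.2-fold lower.

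Replication genes differed less than mitosis genes. Rrm2, a subunit of ribonucleotide reductase, was at 5.93 RPKM against 32.0 and 21.5 RPKM (-1.93 ± 0.33; adjusted p = 0.0106), and Uhrf1, which maintains DNA methylation, at 7.12 RPKM against 32.6 and 25.4 RPKM (-1.82 ± 0.29; adjusted p = 0.00839). Mcm5, a subunit of the replicative helicase, was at 16.7 RPKM against 47.1 and 33.4 RPKM (-1.09 ± 0.22; adjusted p = 0.0214). All 3 lay below both CD49lo libraries, which their choice by smallest p favoured. The count of replication genes called lower was 17 without a scaling factor, 1 when the prior followed RPKM, and 0 without the filter, with only genes of the rule or with any 1 library left out.

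**Figure D4:**
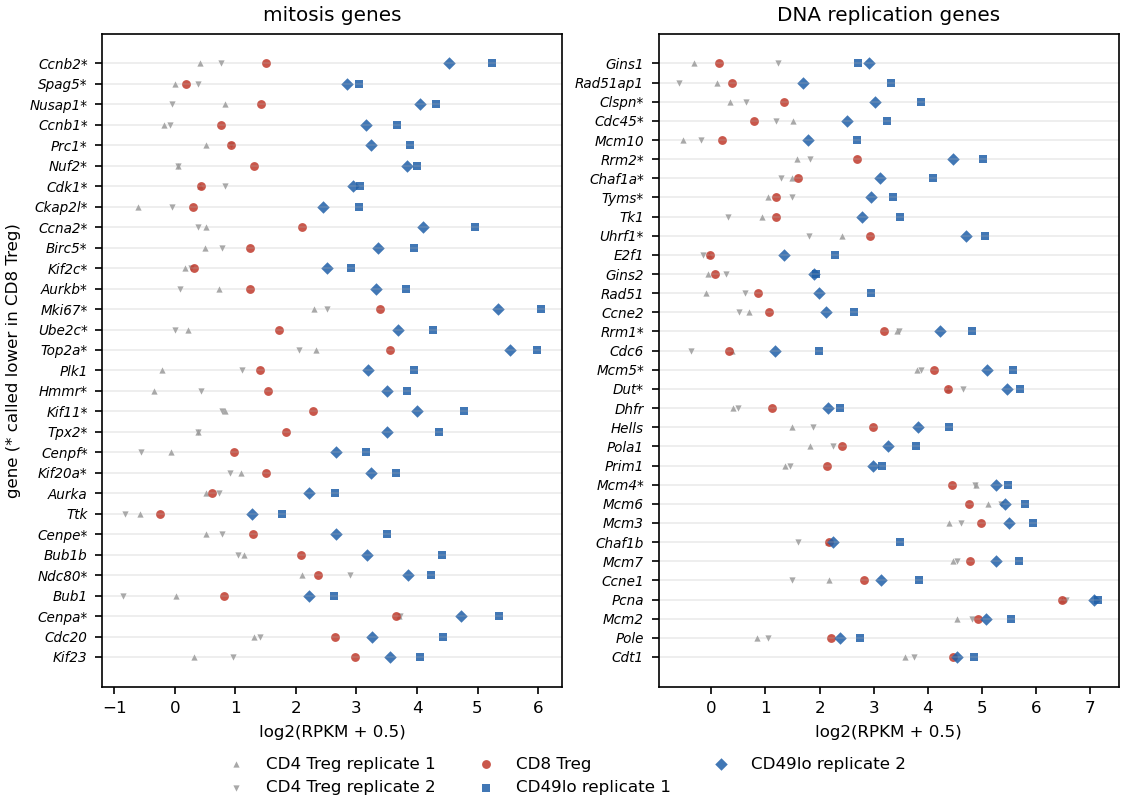
Level of each mitosis gene (left) and DNA replication gene (right) in every library as log2(RPKM + 0.5), ordered by log2 fold change of CD8 Treg over CD49lo, with an asterisk for the 23 and 10 genes called lower in CD8 Treg. The CD8 Treg point lies left of both CD49lo points for nearly every gene, and the CD4 Treg points lie mostly left of CD8 Treg among the mitosis genes.

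Replication-dependent histone genes were abundant in all 5 libraries, and were grouped by symbol after the values were seen. Of 64 tested, 53 were called lower in CD8 Treg and 0 higher, with a median log2 fold change of -2.37, and 58 stood at least 2-fold below both CD49lo libraries. Their summed level was 3966 RPKM in CD8 Treg, 19921 and 16882 RPKM in CD49lo, and 3958 and 3712 RPKM in CD4 Treg. By this sum CD8 Treg was near CD4 Treg, and both CD49lo libraries stood apart. Hist1h3b, an H3 gene, was at 38.5 RPKM against 517 and 441 RPKM (-3.48 ± 0.25; adjusted p = 0.000269). Hist1h2ad (2.13 RPKM against 56.6 and 44.7), Hist1h2ah (3.66 against 80.4 and 70.3), Hist1h2bp (0.530 against 15.4 and 14.7) and Hist1h3g (10.03 against 177 and 111) were also among the 15 smallest log2 fold changes. Histone genes are near-identical copies, so the level of any 1 of them is uncertain, and their transcripts mostly lack poly(A) tails.

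Of the lists described here, ribosomal protein genes held the most calls on the CD8 Treg side. Of 81 cytosolic ribosomal protein genes tested, 65 were called higher in CD8 Treg and 0 lower, with a median log2 fold change of 0.75, and they made up 65 of the 228 genes called higher. The step was small and even. Rps16 was at 1775 RPKM in CD8 Treg, 899 and 940 RPKM in CD49lo (919 ± 29.3, SD, n = 2), and 1287 and 1325 RPKM in CD4 Treg (log2 fold change over CD49lo 1.08 ± 0.11; adjusted p = 0.00114). Rps19 was at 634 RPKM against 347 and 358 RPKM (0.98 ± 0.11; adjusted p = 0.00165), and for both genes CD8 Treg was the highest of the 5 libraries. The count was 60 without a scaling factor, 66 when scaling left these genes out, and 77 with limma-voom, but 31 when the prior followed RPKM, 18 when only genes of the rule were fitted, 11 without the filter and 0 with any 1 library left out. Many ribosomal protein genes have processed pseudogenes, and 18 of the 506 tested pseudogenes were called higher and 6 lower.

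Translation factors and snoRNA host transcripts leaned the same way as the ribosomal protein genes, with fewer calls. Of 27 translation factors, 5 were called higher and 0 lower (median log2 fold change 0.27). Eif4a1, the helicase of cap-dependent initiation, was at 546 RPKM against 283 and 318 RPKM (0.995 ± 0.14; adjusted p = 0.00404), and Eef1g, an elongation factor, at 540 RPKM against 339 and 276 RPKM (0.95 ± 0.15; adjusted p = 0.00656). Of 14 snoRNA host transcripts, 3 were called higher and 0 lower (median 0.68), among them Snhg3 at 779 RPKM against 549 and 585 RPKM (0.59 ± 0.12; adjusted p = 0.0221). The 30 oxidative phosphorylation genes gave 0 calls with limma (median -0.09), and of 17 glycolysis genes 2 were called lower: Slc2a3, the glucose transporter GLUT3, at 6.69 RPKM against 13.5 and 18.9 RPKM (-1.07 ± 0.19; adjusted p = 0.0144), and Hif1a at 17.3 RPKM against 34.6 and 33.4 RPKM (-0.82 ± 0.14; adjusted p = 0.00967).

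Several lists held few calls by number. Of the lists in this paragraph, all but the heat shock genes still had a called share above the 5.37% of all genes tested. Of 23 T cell receptor and proximal signalling genes, 1 was called higher and 2 lower, with a median log2 fold change of -0.01: Sla, an adaptor that limits receptor signals, was at 53.4 RPKM against 36.4 and 41.6 RPKM, and Lat, the linker for T cell activation, was lower at 227 RPKM against 366 and 388 RPKM (-0.60 ± 0.12; adjusted p = 0.0204). Immediate early genes gave 1 call each way of 30, with Nr4a1 lower at 8.65 RPKM against 17.6 and 20.3 RPKM (-0.95 ± 0.19; adjusted p = 0.0198). Of 33 interferon response genes, 4 were called lower and 0 higher (median -0.39), including the GTPase Gbp3 at 20.01 RPKM against 43.9 and 46.3 RPKM (-1.02 ± 0.14; adjusted p = 0.00344). TGF-beta pathway genes gave 1 call each way of 19, and heat shock genes 1 lower of 23. Of 19 genes of MHC class I presentation 2 were called lower, the peptide transporter Tap1 at 48.8 RPKM against 80.6 and 89.4 RPKM and the transactivator Nlrc5 at 30.9 RPKM against 52.3 and 54.7 RPKM. S100 proteins, annexins and galectins were the exception, with 7 called lower of 18 (38.89% called) and 0 higher. Among them was Lgals1, galectin-1, at 120 RPKM against 439 and 539 RPKM (-1.88 ± 0.16; adjusted p = 0.00045).

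The summed markers of most other spleen cell types were also above CD8 Treg in both CD49lo libraries, and both populations held them. Antigen-presenting genes gave the clearest case: 3 of 10 MHC class II genes were called lower in CD8 Treg, among them H2-Eb1 at 68.4 RPKM against 193 and 207 RPKM (-1.41 ± 0.30; adjusted p = 0.0286) and H2-Ab1 at 157 RPKM against 389 and 398 RPKM (-1.19 ± 0.29; adjusted p = 0.0482), with at most 4.93 RPKM of either in CD4 Treg. Of 14 dendritic cell markers, 5 were called lower and 0 higher, and their summed level was 60.3 RPKM in CD8 Treg, 142 and 140 RPKM in CD49lo, and 76.6 and 61.7 RPKM in CD4 Treg. Siglech, which defines plasmacytoid dendritic cells, was at 1.14 RPKM against 11.3 and 11.5 RPKM (-2.75 ± 0.48; adjusted p = 0.0117), and Clec9a, of conventional dendritic cells, had 0 reads in CD8 Treg against 1.09 and 1.62 RPKM. Itgax and Batf3 are also expressed by dendritic cells and were among the 5, Itgax at 5.09 RPKM against 23.3 and 25.4 RPKM. Genes with 0 reads in CD8 Treg that were among the largest differences were Cd209d (5.36 and 8.81 RPKM in CD49lo), a lectin of myeloid cells, at least 11.6-fold lower; Ppp1r14a (5.41 and 10.6 RPKM), at least 7.55-fold lower; and Fabp4 (6.01 and 4.30 RPKM), at least 6.19-fold lower.

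B cell markers summed to 142 RPKM in CD8 Treg, 243 and 325 RPKM in CD49lo, and 33.1 and 37.4 RPKM in CD4 Treg. Of 16 tested, 1 was called lower (6.25%, near the 5.37% of all genes called). Cd79a, a chain of the B cell receptor, was at 18.6 RPKM against 29.2 and 46.9 RPKM (adjusted p = 0.277). Monocyte and macrophage markers summed to 506 RPKM against 727 and 817 RPKM. By gene, 8 of 17 log2 fold changes were positive and 9 negative, with a median of -0.11. Only 1 gene was called (5.88%, near the 5.37% of all genes), and it supplied much of the gap between the sums. That gene was Lyz2, lysozyme, lower at 70.8 RPKM against 224 and 271 RPKM (-1.66 ± 0.35; adjusted p = 0.0262), while the macrophage gene C1qa was at 32.1 RPKM against 22.1 and 31.6 RPKM. Plasma cell markers summed to 104 RPKM against 205 and 179 RPKM, with Irf4 and Prdm1 called lower of 6 tested, and red cell and platelet markers to 21.2 RPKM against 43.6 and 81.6 RPKM, with 1 of 10 called lower. Neutrophil markers overlapped, at 194 RPKM against 308 and 155 RPKM, although Retnlg, a neutrophil gene, was called higher in CD8 Treg at 5.15 RPKM against 0.394 and 0.501 RPKM (2.68 ± 0.57; adjusted p = 0.0277). These levels moved with the MHC class II genes, the dendritic cell genes and those terminal effector genes that myeloid cells also express, such as Zeb2, Lgals3 and Itgax. Their part in those results was not tested.

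**Figure D5:**
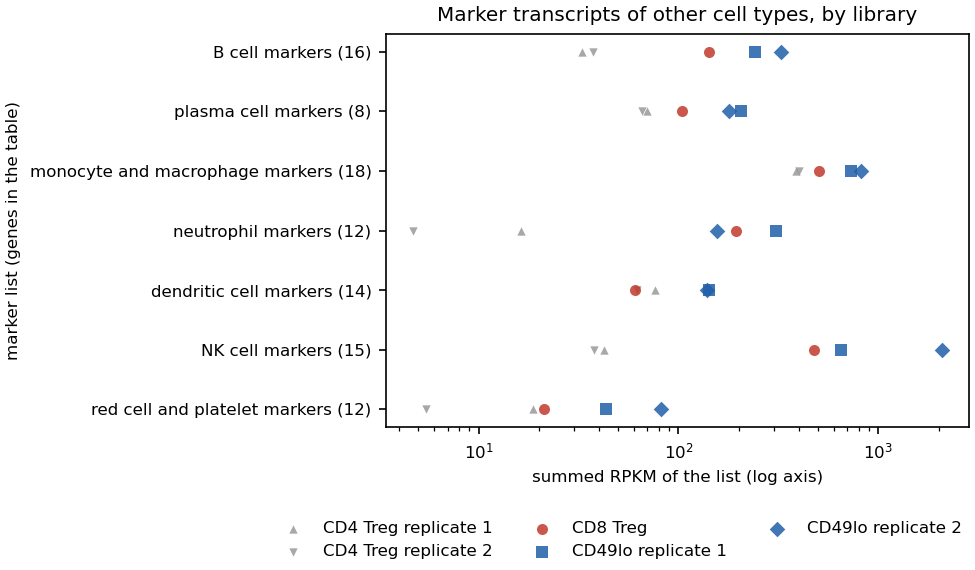
Summed RPKM of marker lists of other cell types in each library, on a log axis, with CD8 Treg in red, CD49lo in blue and CD4 Treg in grey. The CD8 Treg point is left of both CD49lo points except for the neutrophil markers, where it lies between them; for the NK markers that order rests on Gzma, since without it CD8 Treg, at 419 RPKM, lies between the CD49lo libraries at 344 and 506 RPKM.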

How the data were processed

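Sorted spleen T cells were profiled by RNA sequencing in 5 libraries of 3 groups (CD8 Treg 1, CD49lo 2, CD4 Treg 2). The table the authors deposited gives RPKM per gene with mm10 coordinates and gene length. It was made from CASAVA and STAR output per the submitters' processing notes, without versions or counting settings given in the sources used here. The RPKM values were whole multiples of 1 read for all values (tolerance 0.02 reads), so reads per gene and depth were recovered, 5441444 to 8354971 reads per library. Floors of 3 reads cover counting error only.

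Genes with at least 10 reads at the median depth in 1 library and at least 15 reads in all (13298) were tested with limma 3.58.1 (R 4.3.3) on log2(RPKM + 0.5) after TMM scaling, with all 5 libraries and 3 group means (2 residual degrees of freedom) and a prior that followed mean abundance. On this scale a fold change understates the change of low genes. CD8 Treg has no replicate so its spread is taken from the other groups. P-values were two-sided and Benjamini-Hochberg adjusted over all genes tested, and a gene was called at an adjusted p under 0.05. CD49lo spread is the SD over 2 libraries. The fit was tested on simulated data. Promoters came from RefSeq (GRCm38.p6), and tables were handled with Python 3.11.15, numpy 2.4.6 and pandas 2.3.3.

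Named genes were those called, outside the CD49lo range and at least 5 RPKM in the higher group, taking the 15 largest and 15 smallest log2 fold changes, plus 6 given markers, lineage genes and up to 6 of each list with the smallest p. Pseudogenes, predicted genes, T cell receptor and immunoglobulin segments and small RNAs were left out of the 15. Choice by call or smallest p favours genes whose CD49lo replicates lie close together and on 1 side of CD8 Treg. Other members of a list that are named with values, among them those not called, were chosen after their values were seen. The member rule and the lists were chosen with earlier results of these data known. Alternatives were other scalings, pseudocounts of 0.1 and 1, no filter, genes of the rule alone, limma-voom on recovered reads, a prior following RPKM, the 3 libraries alone, and each replicate left out. Some genes are not reported here.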

Additional observations from a re-analysis of the deposited data

How the results depend on the processing

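The number of genes called between CD8 Treg and CD49lo was 714 as reported. It was 452 without the filter (387 higher, 65 lower, 81 of them called as reported too), 307 with only genes of the rule (163 higher, 144 lower) and 365 when the prior followed RPKM (109 higher, 256 lower). Under these 3 settings and the 5 fits on fewer libraries the count moved by more than 1.5 times. With limma-voom 350 were higher and 339 lower, and without scaling 170 higher and 664 lower. With 1 replicate left out in turn the counts ranged from 0 to 0, and with only the CD8 Treg and CD49lo libraries 0 were called, with 1904 genes at an unadjusted p under 0.05. These fits leave fewer residual degrees of freedom. The remaining cause was not tested. None of the 146 named genes that were called changed sign under any alternative. In several settings no change was possible, because the log2 fold change is the same as reported. These are the fits without the filter, with only genes of the rule, with the prior by RPKM and without CD4 Treg libraries. Leaving out a CD49lo replicate could not change it for genes chosen outside the CD49lo range. Of the 243 named genes, 5 that were not called changed sign in at least 1 setting, the T cell gene Cd3e and the neutrophil genes Camp, Ltf, Mmp9 and Ngp. Of those 146, 117 were called with limma-voom, 141 with scaling that left out ribosomal protein genes, 143 with median-of-ratios factors, 137 and 136 with pseudocounts of 0.1 and 1, 95 with the prior by RPKM, 53 of 145 with genes of the rule and 25 without the filter. No paired analysis was possible because the CD8 Treg library carries no replicate number. A single CD8 Treg library limits all of these results: differences between mice, sorts or preparations cannot be told apart from the difference between the populations.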

Other observations

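Myc, the transcription factor that drives cell growth, belongs to no list described above and was looked up after the values were seen. It was at 52.6 RPKM in CD8 Treg, 26.0 and 22.8 RPKM in CD49lo, and 37.9 and 37.8 RPKM in CD4 Treg (limma log2 fold change over CD49lo 1.23 ± 0.17, SE; adjusted p = 0.00391). CD8 Treg had the highest Myc level of the 5 libraries, and the CD49lo libraries the lowest.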
